A study of Homo sapiens with 2 samples.

Results

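Later-intron peaks of NUDT21 are sites in the body of protein-coding genes, away from every annotated transcript start. A peak was taken as one when it lay more than 3 kb from any GENCODE transcript start, touched no exon, and had its summit in intron 2 or later of the canonical transcript of a protein-coding gene and in no first intron. It also had to touch a peak of the other replicate by at least 1 bp. Replicate 1 held 5805 such peaks among 92722 peaks on the main chromosomes, and replicate 2 held 6439 among 66671. They were 11.1% and 11.3% of the peaks shared by the replicates. Before the condition on overlap there were 12470 and 8254, of which 46.6% (95% Wilson interval 45.7 to 47.4) and 78.0% (77.1 to 78.9) were shared. These intervals cover counting error only. Of peaks near starts, 62.9% and 90.5% were shared.

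The study profiled J.gamma1, an established line of T-cell acute lymphoblastic leukemia (T-ALL), by CUT&Tag with an antibody to NUDT21, to learn where the protein lies on chromatin. Both samples formed 1 group of 2 biological replicates with no treatment in the labels, and the sources used here describe no control library. J.gamma1 is 1 clonal line, a derivative of Jurkat that lacks the signalling enzyme phospholipase C gamma 1. In CUT&Tag an antibody directs a transposase to chromatin that holds its target, and the released DNA is sequenced, so a peak marks DNA near the protein and not RNA bound by it.

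NUDT21, also called CFIm25, is the subunit of cleavage factor Im that recognises UGUA in pre-mRNA and so helps to choose where a transcript is cleaved and polyadenylated. Many human genes carry polyadenylation signals inside their introns, and cleavage there gives a truncated transcript. Processing factors load onto RNA polymerase II during transcription, so the body of a transcribed gene is a place where they can be met.

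The sequences under strong peaks show what these sites look like. Each line is the 201 bp around the replicate 1 summit in the hg38 genome, written 5′ to 3′ on the strand of the gene. In the first set, capitals mark TGTA, the DNA form of UGUA, or TACA, which is TGTA on the other strand. The set holds the strongest later-intron region of RUNX1 (chr21:35027059-35027259, minus strand), MYO7B (chr2:127615779-127615979, plus), RPTOR (chr17:80931529-80931729, plus), MAD1L1 (chr7:2139052-2139252, minus), BCL11B (chr14:99211182-99211382, minus), ZAP70 (chr2:97728227-97728427, plus) and USP7 (chr16:8911521-8911721, minus). They are shown because they come from genes with the highest folds or the most regions, and from T-lineage and T-ALL genes.
RUNX1: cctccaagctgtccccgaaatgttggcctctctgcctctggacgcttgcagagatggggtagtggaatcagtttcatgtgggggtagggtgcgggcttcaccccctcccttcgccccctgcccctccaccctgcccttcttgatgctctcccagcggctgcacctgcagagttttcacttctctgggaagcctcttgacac
MYO7B: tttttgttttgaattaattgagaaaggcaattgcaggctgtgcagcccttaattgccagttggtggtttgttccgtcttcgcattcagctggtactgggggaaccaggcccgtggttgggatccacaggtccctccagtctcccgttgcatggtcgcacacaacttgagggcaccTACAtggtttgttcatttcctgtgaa
RPTOR: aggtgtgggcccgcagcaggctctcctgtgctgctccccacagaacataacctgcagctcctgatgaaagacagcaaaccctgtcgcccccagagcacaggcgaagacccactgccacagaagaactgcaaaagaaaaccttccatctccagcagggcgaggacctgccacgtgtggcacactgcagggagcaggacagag
MAD1L1: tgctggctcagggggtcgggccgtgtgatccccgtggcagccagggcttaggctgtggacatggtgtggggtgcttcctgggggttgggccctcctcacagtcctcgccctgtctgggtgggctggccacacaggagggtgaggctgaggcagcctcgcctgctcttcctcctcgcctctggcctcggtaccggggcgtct
BCL11B: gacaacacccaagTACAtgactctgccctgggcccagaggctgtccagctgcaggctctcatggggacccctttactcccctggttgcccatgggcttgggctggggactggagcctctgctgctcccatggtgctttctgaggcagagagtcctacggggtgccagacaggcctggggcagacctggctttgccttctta
ZAP70: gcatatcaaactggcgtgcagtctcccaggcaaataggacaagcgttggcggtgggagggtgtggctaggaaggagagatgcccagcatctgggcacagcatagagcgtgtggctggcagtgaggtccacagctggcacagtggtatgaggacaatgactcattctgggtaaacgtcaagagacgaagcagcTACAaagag
USP7: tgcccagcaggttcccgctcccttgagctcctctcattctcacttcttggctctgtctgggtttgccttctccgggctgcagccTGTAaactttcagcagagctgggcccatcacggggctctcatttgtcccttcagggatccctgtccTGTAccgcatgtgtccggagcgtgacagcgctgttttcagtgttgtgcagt

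Of these 7 windows, 1 held TGTA on the sense strand, that of USP7 with 2 copies. Their GC content ran from 50.2% in MYO7B to 69.2% in MAD1L1. BCL11B held 1 CpG and MAD1L1 9. Words of 31 bases that stand more than once in the genome made up 9.94% of the MYO7B window, and 0% of the others.

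A second set of strong peaks lay on tandem repeats, short units that follow each other head to tail. In these lines the capitals mark the commonest 12-base word of the window. They come from HDAC4 (chr2:239232600-239232800, minus strand), LSS (chr21:46201283-46201483, minus), EIPR1 (chr2:3221157-3221357, minus) and CDH4 (chr20:61797180-61797380, plus).
HDAC4: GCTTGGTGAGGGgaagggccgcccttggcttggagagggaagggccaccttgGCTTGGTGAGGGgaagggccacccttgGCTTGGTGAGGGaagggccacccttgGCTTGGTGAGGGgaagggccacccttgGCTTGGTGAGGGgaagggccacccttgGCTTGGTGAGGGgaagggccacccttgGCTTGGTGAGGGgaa
LSS: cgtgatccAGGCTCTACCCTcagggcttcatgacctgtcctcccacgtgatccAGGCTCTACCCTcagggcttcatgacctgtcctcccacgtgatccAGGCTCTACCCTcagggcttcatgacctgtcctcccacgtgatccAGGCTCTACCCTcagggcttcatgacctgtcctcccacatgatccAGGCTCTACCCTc
EIPR1: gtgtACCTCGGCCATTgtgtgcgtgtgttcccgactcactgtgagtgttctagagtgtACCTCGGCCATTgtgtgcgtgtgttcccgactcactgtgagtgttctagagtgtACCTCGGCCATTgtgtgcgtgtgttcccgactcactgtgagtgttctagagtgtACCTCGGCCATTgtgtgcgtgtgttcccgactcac
CDH4: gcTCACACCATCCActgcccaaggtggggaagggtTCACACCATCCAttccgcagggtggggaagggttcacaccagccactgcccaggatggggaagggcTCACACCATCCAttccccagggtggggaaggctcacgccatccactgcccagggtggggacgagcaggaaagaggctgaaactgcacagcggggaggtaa

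The marked word stood 7 times in the HDAC4 window, 5 times in LSS, 4 times in EIPR1 and 3 times in CDH4. Words of 31 bases that stand more than once in the genome made up all of the LSS and EIPR1 windows, 72.5% of the HDAC4 window and none of the CDH4 window. How reads from such words were placed is not given in the sources used here. Windows in which over 10% of the 12-base words recurred, called tandem repeats here, were 6.41% of later-intron peaks in replicate 1 and 5.23% in replicate 2. They were 2.15% of windows across later introns, outside exons and first introns and over 3 kb from any start. Of the shared first-intron peaks they were 4.20 and 3.13%.

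A later-intron region is a merged interval that holds a later-intron peak of each replicate, and there were 5351 of them. The 10 strongest were found by adding the ranks of the fold in both replicates, where the fold is the enrichment at the summit over the local background that the peak caller gave. HDAC4, a class IIa histone deacetylase, held the first in its intron 3, with folds of 18.8 and 15.5 in replicates 1 and 2 and with summits 1198 bp apart. The replicate 1 summit lay on the tandem repeat printed above and the replicate 2 summit did not. The second lay in intron 2 of RUNX1, a transcription factor of blood and T-cell development, with folds of 15.5 and 15.6 and its summit at the same base in both replicates. It rested on 117 and 68 fragments at the summit, against medians of 30 and 19 over all later-intron peaks. Fragments and local background were worked out from the fold and p of each peak. In replicate 1 the values fitted when a fragment counted as 0.921 on the scale of the background, and in replicate 2 as 1, so in replicate 1 the 2 quantities are on different scales.

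MYO7B, an unconventional myosin, followed with folds of 15.6 and 15.5 in intron 26. LSS, the lanosterol synthase of cholesterol synthesis, had 17.5 and 11.2 in intron 17. RPTOR, the scaffold of the growth-regulating complex mTORC1, held a pair of them, in intron 24 with 13.1 and 13.5 and in intron 6 with 12.4 and 12.4. These RPTOR values differed little between the replicates, while those of LSS differed more.

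The other 4 lay in KLHDC4 with 15.8 and 10.5, in the tubulin cofactor gene TBCD with 12.2 and 11.7, in the last intron of the neurexin gene NRXN2 with 11.7 and 12.2, and in EIPR1 with 12.1 and 10.4. EIPR1 had the most fragments of the 10, 275 and 137, and a summit on the repeat in both replicates. Of the 10 regions, 7 stood within 5 Mb of a chromosome end, and 4 had a summit on a tandem repeat in at least 1 replicate. Over all later-intron peaks, 33.2 and 35.4% stood within 5 Mb of an end. Counted in each replicate by itself, 6.41 and 5.23% stood on a tandem repeat.

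Most later-intron peaks were far weaker. The median fold was 4.07 in replicate 1 and 4.12 in replicate 2, and the 95th percentiles were 7.20 and 6.87. First-intron peaks that met the same conditions had medians of 4.16 and 4.21, and shared intergenic peaks 4.15 and 4.16. The later-intron median minus the first-intron median was -0.0925 and -0.0872, a small difference of one direction. Peaks within 3 kb of a start had medians of 4.73 and 4.49. With 2 replicates an exact permutation test cannot go below p = 0.5 (two-sided), so differences are given for each replicate with no test.

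The replicates ranked later-intron regions alike in part. Spearman's rho between their folds was 0.62 across the 5351 regions, which are not independent and share base composition. Summits lay within 200 bp of each other in 66.8% of regions, with a median distance of 102 bp.

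Regions with high and low folds differed more in background than in signal, a contrast that in part follows from the sorting. The fold is set by these 2 quantities, and both were recovered from the fold and p of each peak. A peak of low fold also reaches significance only with enough fragments. The regions were cut into 4 equal groups by their summed fold rank. In the 1338 regions with the highest folds, the median number of fragments at the summit was 35 and 21. In the 1338 with the lowest it was 31 and 19. The local background was 4.24 and 2.69 fragments in the highest group and 9.0 and 5.39 in the lowest. The median GC content was 59.2 and 58.2% in the highest and 59.7 and 58.7% in the lowest. Peaks on tandem repeats had a median fold of 4.45 and 3.96, against 4.03 and 4.13 on other sequence, so the order of these 2 groups differed between the replicates.

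**Figure D1:**
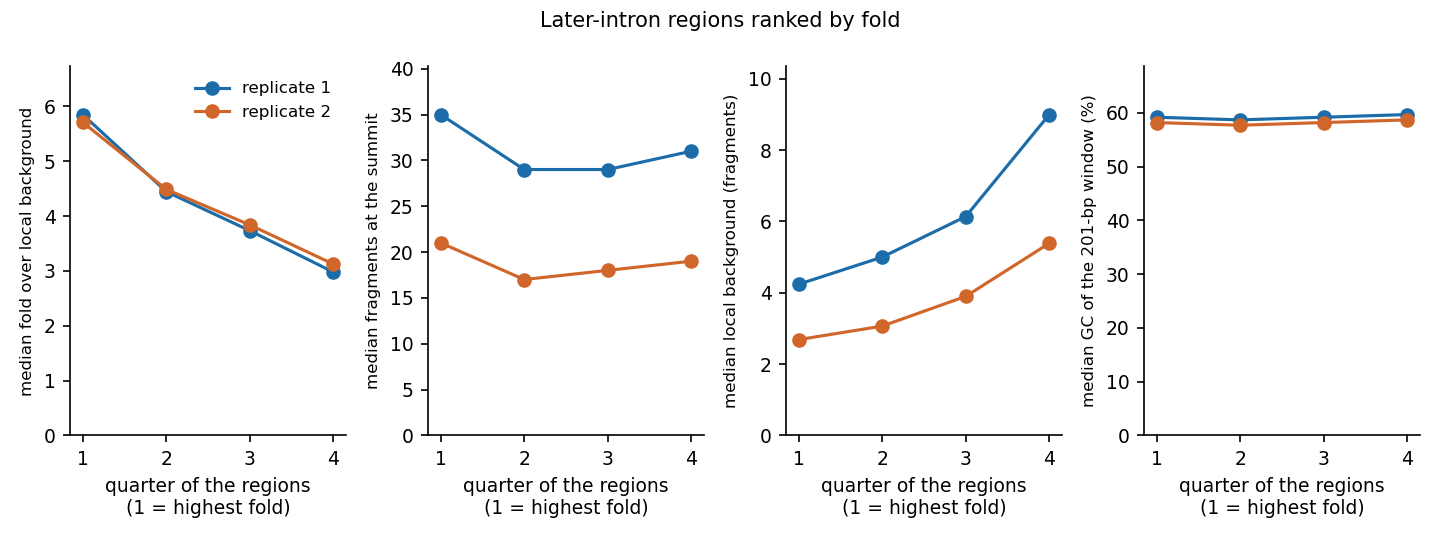
Median fold, fragments at the summit, local background (fragments) and GC content (percent) of the later-intron regions in 4 equal groups by summed fold rank (1 = highest), 1 line per replicate. From the first to the last group the median background goes from 4.24 to 9.0 fragments in replicate 1, while the median signal goes from 35 to 31. Both quantities were recovered from the fold that sets the groups, so the sorting in part gives this contrast.

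Density was judged against the eligible sequence, 622 Mb in all. It is the bases of introns 2 and later outside exons and first introns and more than 3 kb from any start. These conditions were asked of single bases, but of whole peaks for the peaks. Bases close to an exon or a start therefore count where few peaks could qualify. Later introns held 9.34 and 10.4 shared peaks per Mb in replicates 1 and 2, or 9.85 ± 0.721 (SD, n = 2). First introns, with 194 Mb, held 14.6 and 15.6. The ratio of later to first introns was 0.652 ± 0.0157 (SD, n = 2), and 0.691 ± 0.0192 between windows of equal GC content. With summits at least 1 kb from exons and 4 kb from starts the mean ratio was 0.664. First introns were denser in both replicates, by more than the spread between them.

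GC content at later-intron sites was higher than in eligible later-intron sequence at large. That sequence is of 13736 genes, of which 2091 held a region, so it is not only that of the introns with peaks. The median GC content of the 201 bp at the summit was 59.2% in replicate 1 and 58.7% in replicate 2, against 39.3% in eligible sequence, a difference of 19.7 ± 0.352 percentage points (SD, n = 2). Other peaks were alike in this. First-intron peaks had medians of 58.7 and 58.2%, intergenic peaks 59.7 and 59.2%, and all shared peaks 60.7 and 60.2%. Of later-intron peaks, 97.7% and 96.4% stood in windows above 50% GC, which make up 15.9% of that sequence. Windows of at most 45% GC were 70.2% of it and held 11 and 20 peaks. Density was highest at 62.5 to 65% GC, with 231 and 225 peaks per Mb, and lower above 70%, with 67.6 and 39.5. The part of base composition in amplification and mapping of the libraries was not tested.

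**Figure D2:**
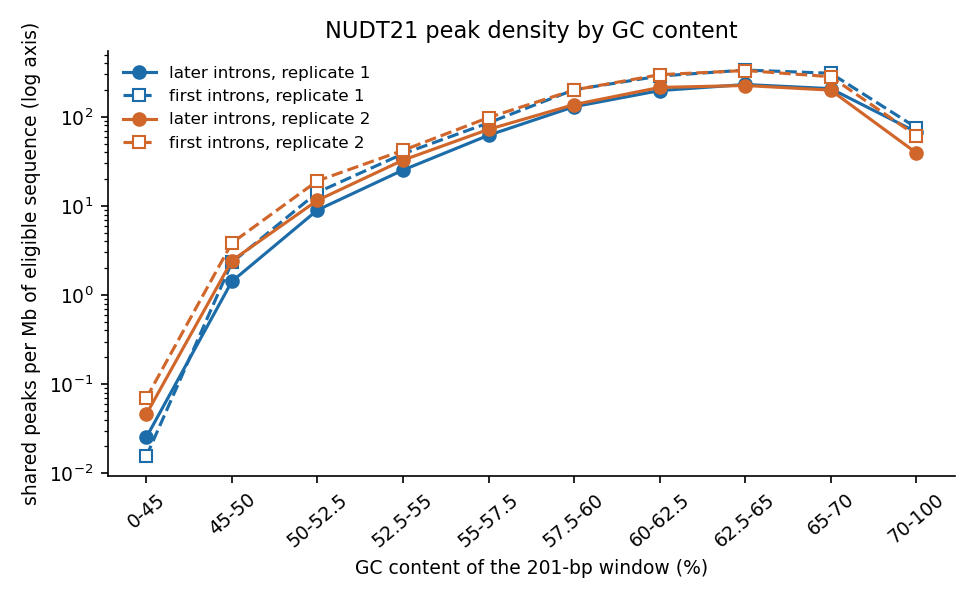
Shared peaks per Mb of eligible sequence (log axis) against the GC content of the 201-bp window in percent, for later introns (circles) and first introns (squares) in each replicate. In later introns the density climbs from 0.0252 and 0.0458 peaks per Mb at up to 45% GC to 231 and 225 at 62.5 to 65%.

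The high GC content was in part local and in part that of the neighbourhood. At 1500 bp from the summit the median was 51.2 and 51.7%, and over 10 kb it was 51.1 and 51.6%, against 39.4% over 10 kb in eligible sequence. Windows of 55 to 60% GC held 16.9 and 17.8 peaks per Mb where the surrounding 10 kb had at most 40% GC, and 128 and 143 where it had 50 to 55%. Above 55% they held 87.2 and 139, lower again, though by little in replicate 2. Between the same 2 neighbourhoods, windows of 60 to 65% GC also fell, from 252 to 174 and from 245 to 222. Windows of 50 to 55% GC rose instead, from 27.4 to 32.2 and from 41.5 to 56.9. Few later-intron peaks resembled CpG islands, the CpG-dense stretches of many promoters, as was the case for peaks in first introns and between genes. Windows of 500 bp above 55% GC with an observed to expected CpG ratio over 0.65 were 1.34 and 0.916% of later-intron peaks. Such windows were 0.118% of eligible later-intron sequence, so they were more frequent at the peaks than in these introns at large. They were 0.918 and 0.889% of first-intron peaks and 2.79 and 2.5% of intergenic peaks. Of peaks touching an exon they were 2.40 and 2.15%, and of peaks near starts 22.4 and 19.3%.

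Genes with NUDT21 at their own promoter held most of the later-intron peaks. Genes with a peak within 3 kb of the canonical start in both replicates had 26.8 and 30.2 later-intron peaks per Mb. Genes with such a peak in 1 replicate had 6.27 and 6.60, and genes with none had 1.04 and 1.05. The first group held 82.7 and 83.8% of the peaks on 29.4% of the eligible sequence. Its density was 11.9 ± 0.706 times (SD, n = 2) that of all other genes, and 4.39 ± 0.396 times between windows of equal GC content. With promoters taken as 1 kb on either side of the canonical start the mean ratio was 7.55. A peak in introns of more than 1 gene was counted for each, and transcript levels were not measured in these libraries.

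By number, intron 2 was the densest, with 12.5 and 13.5 peaks per Mb. Introns 6 to 10 had 8.72 and 9.84, introns 11 to 20 had 9.90 and 11, and introns beyond the 20th had 5.01 and 5.87. Last introns, which precede the terminal exon and its polyadenylation sites, held 12.7 and 14.0, against 9.23 and 10.3 in the others. The gap was smaller against the number that windows of equal GC content would give. Last introns held 1.12 and 1.13 times that number, the others 1.00 and 1.00, and intron 2 held 1.31 and 1.27 times. Introns of 3 to 10 kb had 13.7 and 15.6 and those above 100 kb had 3.02 and 3.13. Introns of at most 1 kb had 1.46 and 3.43, where a peak has little room between the exons. Introns above 10 kb were cut into 3 equal parts, of which the middle one held 9.34 and 9.94 per Mb, the first 8.17 and 8.84 and the last 8.30 and 9.0. The first and last parts border exons, and a peak that touches an exon was left out while the bases beside the exon were counted. A higher middle part in part follows from this rule.

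**Figure D3:**
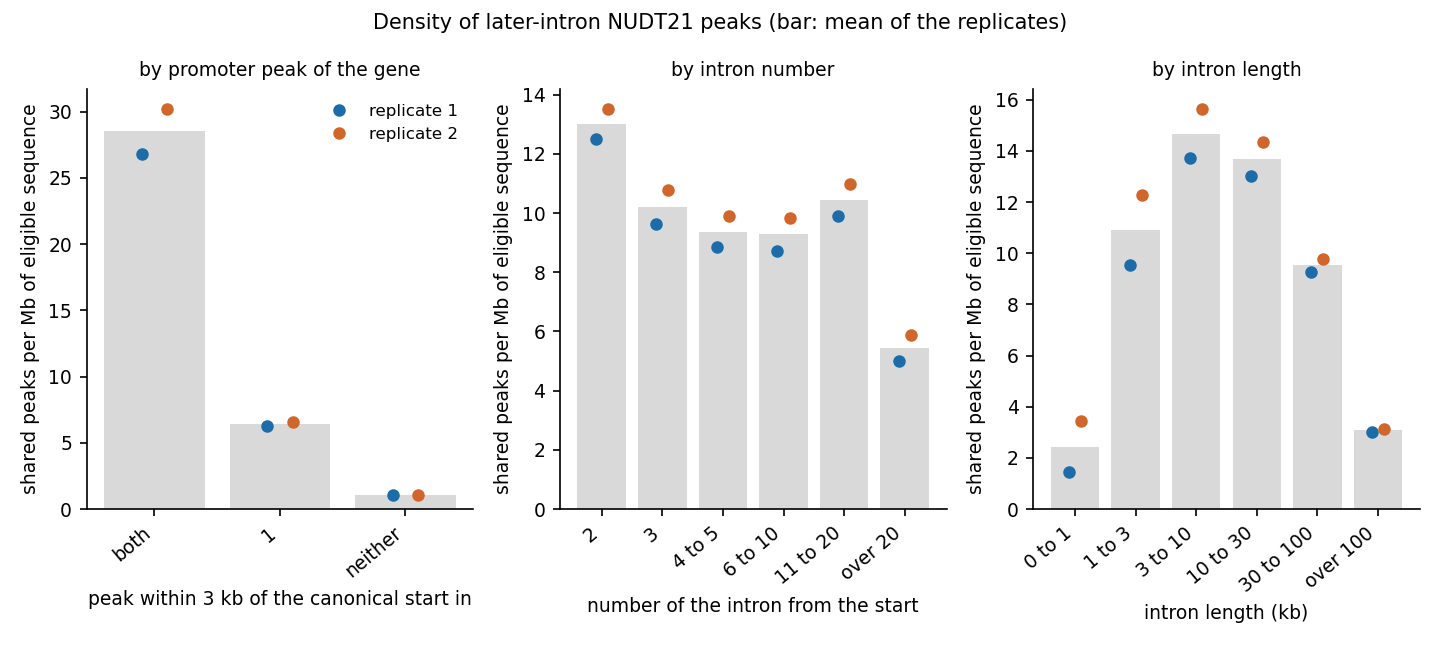
Shared later-intron peaks per Mb of eligible sequence by the promoter peak of the gene, the number of the intron and the length of the intron in kb, with a point for each replicate and a bar for their mean. Genes whose promoter had a peak in each replicate stand at 26.8 and 30.2, intron 2 at 12.5 and 13.5, and introns above 100 kb at 3.02 and 3.13.

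At the limit of 3 kb the change in fold had opposite directions in the 2 replicates. Just inside it, at 3000 to 3500 bp from a start, 380 and 426 peaks had median folds of 4.19 and 4.19. Just outside, at 2500 to 3000 bp, 411 and 465 peaks that met the other conditions had 4.38 and 4.15. The median later-intron peak lay 9255 and 9032 bp from the nearest start, and its summit lay 3181 and 2908 bp from the nearest exon.

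Chromosomes differed widely. Chromosome 19 had 51.3 and 63.1 later-intron peaks per Mb, chromosome 22 had 41.8 and 49.6, chromosome 17 had 37.8 and 43.3, and chromosome X had 0.742 and 0.853. A yardstick for base composition was the number of peaks a stretch would hold if each of its windows had the density of all later-intron windows of its GC content. Chromosome 21 had 2.07 and 2.02 times that number, chromosome 17 had 1.94 and 2.02, and chromosome X had 0.166 and 0.166. Peaks on chromosome X had a median background of 3.0 and 2.02 fragments, against 6.0 and 3.62 over all later-intron peaks, and copy number was not measured. Within 5 Mb of a chromosome end stood 33.2 and 35.4% of later-intron peaks, on 7.09% of the eligible sequence, which was 1.21 and 1.36 times the number from GC content.

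A small share of genes held the regions. Of 13736 protein-coding genes with eligible later-intron sequence, 2091 (15.2%) held at least 1 region, 1151 of them exactly 1, and 86 held 10 or more. Counted over genes there were 5593 regions, and the 283 genes with the most held 1 in every 2 of them. The median distance to the next region was 5.93 kb, and 58.4% had another within 10 kb.

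CDH4, which encodes the cell adhesion protein R-cadherin, had the most, 122 regions in 633 kb of eligible sequence. They held 127 and 140 peaks, 3.34 and 3.47 times the number from GC content. Its lowest folds were 2.23 and 2.53 and its highest 10.2 and 9.17. MAD1L1, a component of the spindle assembly checkpoint, followed with 71 regions, all of which also lie in introns of the unnamed gene ENSG00000286192. RPTOR had 64, TBC1D22A, which has the domain of Rab GTPase regulators, had 47, and HDAC4 had 46.

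RPTOR and MAD1L1 show how signal and background enter the fold. RPTOR had median folds of 5.96 and 5.85 with 37.5 and 22 fragments at its summits on a background of 4.24 and 2.74. MAD1L1 had median folds of 3.64 and 3.75 with 38 and 22 fragments on a background of 9.0 and 5.41. Their signals were alike and their backgrounds differed. RPTOR held 5.01 and 5.59 times the number from GC content and MAD1L1 2.35 and 2.63 times.

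Counted per Mb, other genes led. ORAI1, the pore of the store-operated calcium channel of T cells, had 5 regions in 11.2 kb, or 445 per Mb. BCL11B, a transcription factor needed for T-lineage commitment, had 24 in 81.1 kb, or 296 per Mb. LUC7L, a protein associated with the U1 splicing particle, had 292 per Mb, DIDO1, a PHD finger protein of chromatin, had 285, and MAPKAPK3, a kinase downstream of p38, had 266, each from 6 regions. LUC7L held 21 and 17.4 times the number from GC content, and the median GC content of its windows was 53.0 and 51.5%. All 5 carried a peak near their canonical start in each replicate, as did 6815 of the 13736 genes with eligible sequence.

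**Figure D4:**
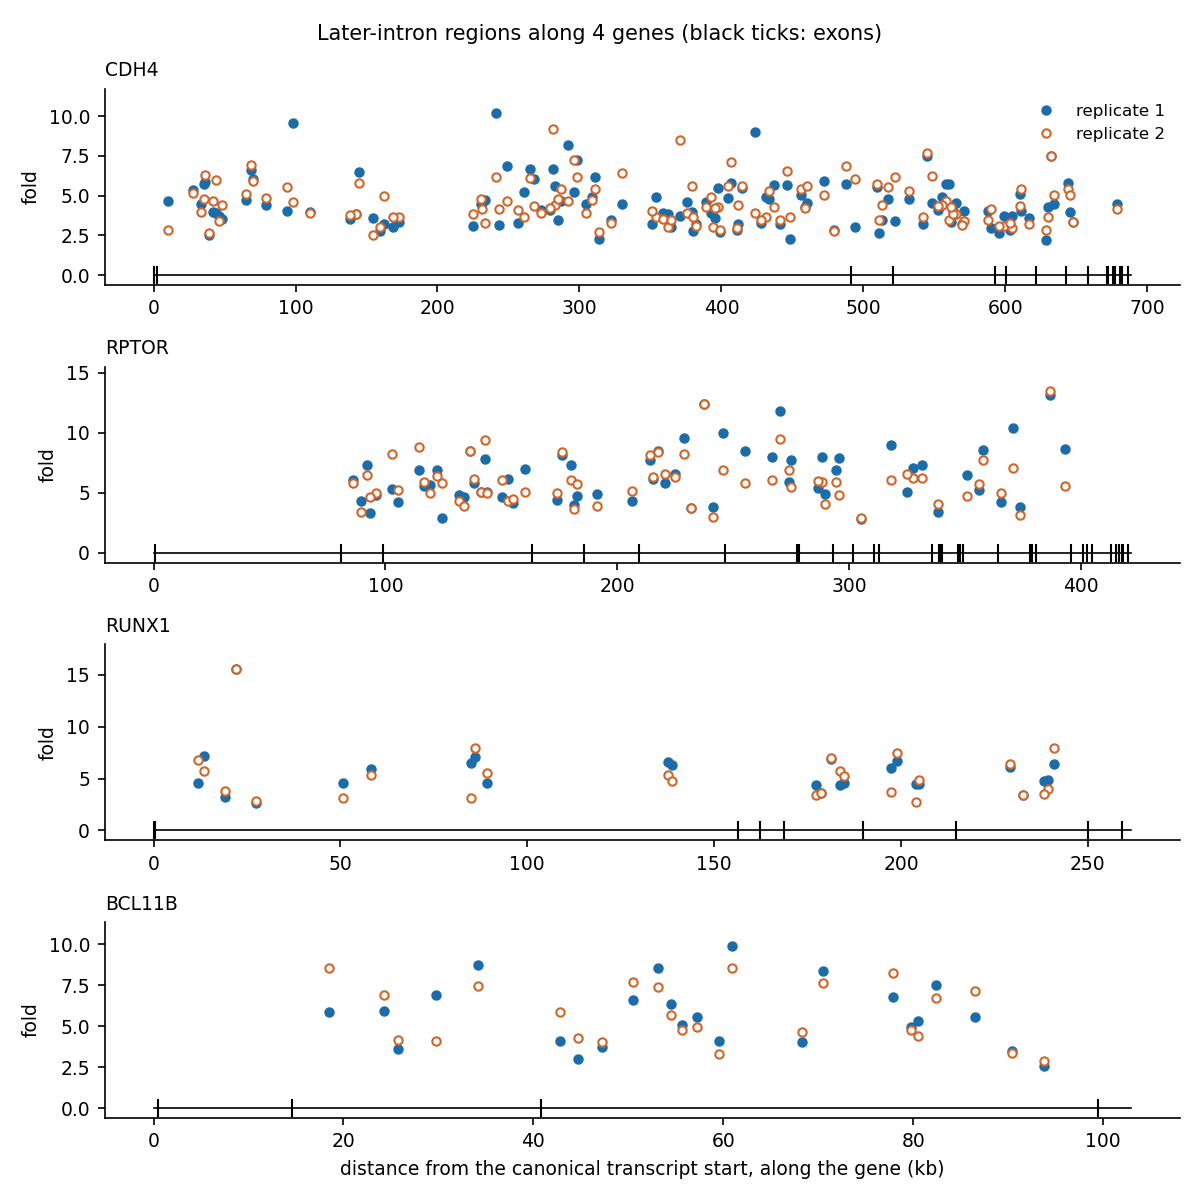
Fold of each later-intron region (filled points replicate 1, open points replicate 2) against its distance in kb from the canonical transcript start in CDH4, RPTOR, RUNX1 and BCL11B, with exons as black ticks. Regions are spread over the introns of all 4 genes, and 1 region of RUNX1 stands apart at 15.5 and 15.6.

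Transcription factors of the T lineage formed a list of 27 genes with eligible sequence. Regions stood in 13 of them (48.1%, against 15.2% of all genes), 78 in all, with a median of 0 per gene, as over all genes. RUNX1 had 26 regions and BCL11B 24, together 64.1% of the total. RUNX1 had 27 and 26 peaks where GC content gave 1.75 and 2.06, although a peak near its canonical start was called in 1 replicate alone. NFATC1, which calcium signalling activates, had 9 regions, the strongest with folds of 4.72 and 5.15. ETV6, an ETS family repressor, had 4, the strongest with 5.33 and 6.49. The list had 2.88 and 2.55 times the number from GC content, and 1.35 and 1.20 without RUNX1 and BCL11B. The other 14 genes had no region, GATA3 and MYB among them.

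The next list held genes of T-cell receptor signalling and the T-cell surface. Of 31 genes, 6 had a region (19.4%, against 15.2% of all genes) and 25 had none, LCK and CD3E among them. UBASH3A, a suppressor of receptor signalling, had 6, and the protein kinase C genes PRKCB and PRKCQ had 3 each. ZAP70, the kinase that the receptor recruits, had 1, in intron 4, with folds of 7.01 and 9.86 on 43 and 38 fragments. The list had 1.39 and 1.36 times the number from GC content, and 0.665 and 0.763 without its 2 genes with the most regions.

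Among 23 genes mutated or activated in T-ALL, 7 had a region (30.4%, against 15.2% of all genes). The DNA methyltransferase gene DNMT3A had 7. USP7, a deubiquitinase, had 5, where its 6 and 5 peaks were 26.0 and 18.4 times the number from GC content. The Polycomb gene SUZ12 had 2, and 16 genes, NOTCH1 and TAL1 among them, had none. The list had 1.93 and 1.85 times the number from GC content, and 0.961 and 1.00 without DNMT3A and USP7.

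Genes of 3′ end processing, the pathway of NUDT21 itself, stood near the share of all genes. Of 31, 5 had 1 region each (16.1%, against 15.2%). The list had 1.5 and 1.17 times the number from GC content, and 0.943 and 0.625 without 2 of these 5 genes, taken in order of their replicate 1 peaks. CPSF7, which encodes a partner of NUDT21 in cleavage factor Im, had its region in the last intron, with folds of 3.70 and 4.49 on 19 and 14 fragments. WDR33, which recognises the polyadenylation signal, had folds of 4.79 and 4.59, SSU72, a phosphatase of RNA polymerase II, 4.01 and 4.32, and the polymerase kinase gene CDK12 3.71 and 3.41. These folds lay near the medians of 4.07 and 4.12 over all later-intron peaks. NUDT21 had no region in 1.31 kb of eligible sequence, CPSF6 none in 12.7 kb and PCF11 none in 8.08 kb. In the DNA damage response, 4 of 22 genes had a region (18.2%, against 15.2%), FANCA with 3, FANCD2 and BRCA1 with 2 each, and TP53BP1 with 1. That list had 1.39 and 1.62 times the number from GC content, and 0.621 and 0.693 without its 2 genes with the most regions.

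Chromatin regulators had the highest share of genes with a region among the 7 lists. Of 32 genes, 21 had a region (65.6%, against 15.2% of all genes), with a median of 1 per gene and 146 in all. HDAC4 had the most of the list, and among histone demethylase genes KDM4B had 15 and KDM2B 11. The list had 2.55 and 2.83 times the number from GC content, and 2.35 and 2.53 without its 2 genes with the most regions. On this measure its order against the T-lineage list differed between the replicates. A promoter peak was called in each replicate for 28 of its genes. The same held for 26 of 31 genes of 3′ end processing, 20 of 22 of the DNA damage response, 17 of 31 of T-cell receptor signalling, 14 of 23 T-ALL genes and 13 of 27 T-lineage factors. Over all genes with eligible sequence it held for 6815 of 13736.

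Neuronal adhesion and channel genes, many of which have very long introns, had few regions for their length, although a larger share of these genes than of all genes had at least 1. They held 61 regions in 10 of 29 genes (34.5%, against 15.2% of all genes), or 2.65 regions per Mb against 8.80 over all genes. The list had 0.331 and 0.308 times the number from GC content. PTPRN2, a receptor-type phosphatase of secretory vesicles, had 25 regions in 889 kb, 0.454 and 0.453 times the number from GC content. SHANK2, a scaffold of synapses, had 11 and the calcium channel gene CACNA1B 5. NRXN2 went the other way, with 11 regions and 4.42 and 4.40 times that number. A promoter peak was called in each replicate for 3 of these 29 genes, PTPRN2, NRXN2 and CACNA1B, against 6815 of 13736 over all genes.

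**Figure D5:**
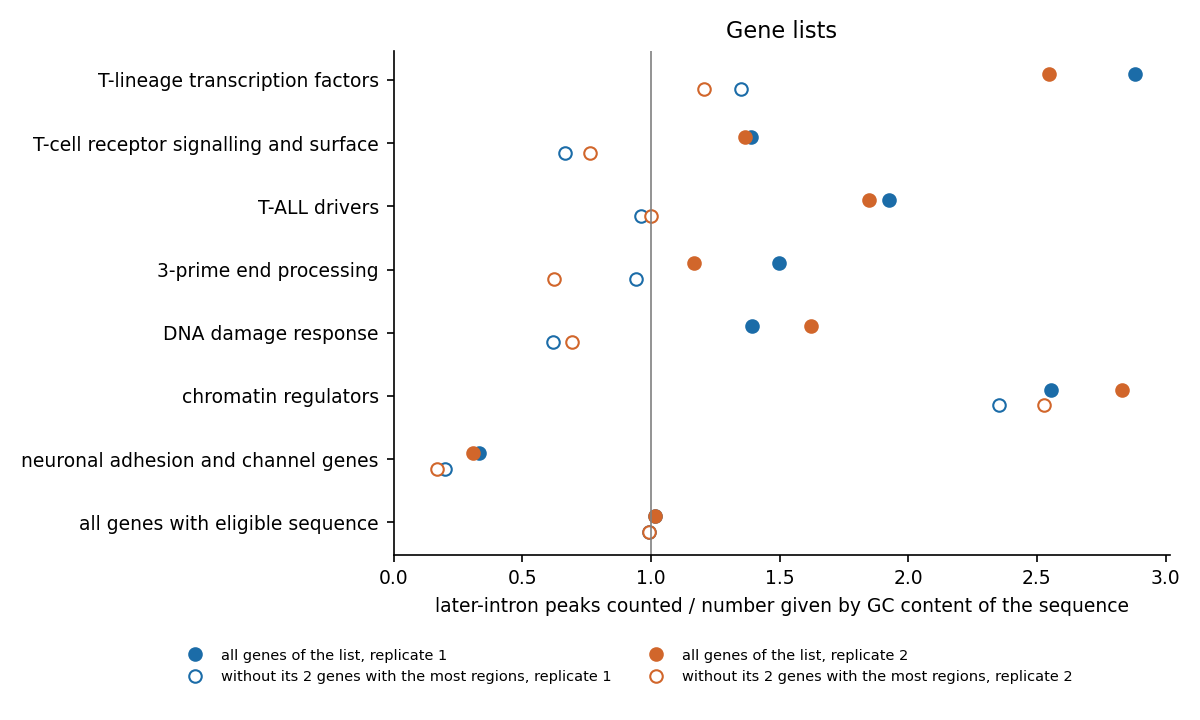
Later-intron peaks of each gene list divided by the number given by the GC content of its sequence, for all genes of the list (filled points) and without its 2 genes with the most regions (open points), 1 colour per replicate. Chromatin regulators stand at 2.35 and 2.53 without these genes, and neuronal genes at 0.331 and 0.308 with them.

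Words were searched in the 201 bp around each summit, in the 5785 and 6412 windows whose host gene gives 1 strand. TGTA stood on the sense strand of 36.7% (95% Wilson interval 35.4 to 37.9) of windows in replicate 1 and 37.4% (36.2 to 38.6) in replicate 2. It stood on the antisense strand of 32.7 and 31.4%. The sense share was higher by 3.96 and 6.04 percentage points, and in eligible sequence of the same GC content by 2.89 and 2.91. The difference between peaks and that sequence was 2.10 ± 1.46 points (SD, n = 2), little more than the spread between the replicates. The mean sense excess at peaks was 5.0 ± 1.47 points (SD, n = 2), 2.81 without replicate 2 and 2.75 with 50 bp on either side of the summit. On either strand TGTA stood in 53.0 and 52.5% of windows, against 50.4 and 52.5% of eligible sequence of the same GC content. It stood in 54.9 and 54.9% of shared first-intron peaks.

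The polyadenylation signal AATAAA was rare, on the sense strand of 1.56 and 1.82% of windows, against 1.46 and 1.65% in eligible sequence of the same GC content. ATTAAA, another such signal, went the other way, with 0.812 and 0.983% against 1.07 and 1.21%. TGTGGT, a core that RUNX proteins bind, stood on either strand in 16.8 and 17.2% of windows, 1.12 and 1.12 times the share in that sequence. CACGTG, the E-box of MYC and MAX, stood in 5.53 and 5.29%, or 1.19 and 1.16 times. CAGCTG, an E-box of E proteins, stood in 18.5 and 18.3%, or 1.05 and 1.07 times. AGATAA, which GATA proteins bind, stood in 2.18 and 2.11%, or 0.797 and 0.717 times. Strand differences were not limited to TGTA. The sense minus the antisense share of TGTGGT was 2.70 and 3.52 points, against 2.09 and 2.02 in eligible sequence of the same GC content. For AACTG, a word of MYB, it was -3.34 and -5.01, against -2.52 and -2.55. For AGATAA it was 0 and -0.468, against -0.228 and -0.232. These were among 13 words searched on both strands, and a word in a window is a description of its sequence and does not show binding.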

How the data were processed

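CUT&Tag peak lists of NUDT21 in J.gamma1 cells (2 biological replicates, 1 group) were used. Per the study's methods, the authors trimmed reads with fastp, aligned them to hg38 with Bowtie2 2.2.5, removed duplicates and called peaks with MACS3. The submitters' processing notes give MACS3 as 3.0.1, and 1 peak list was deposited per replicate. The deposited lists give for each peak a fold ratio over local background, a −log10 p-value, a −log10 q-value and a score derived from it, which was not used. Read totals were not used, so the depth is unknown. Summit fragments and background were recovered from the deposited fold and p for 99.9% and 100.0% of peaks, taking the caller's fold as the ratio of scaled fragments plus 1 to background plus 1. The fitted scale was 0.921 and 1. Whether a control library was used is not given in the sources used here.

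Peaks were placed on GENCODE 44 with Python 3.11.15, numpy 2.4.6, pandas 2.3.3, scipy 1.17.1, numba 0.67.0 and matplotlib 3.10.9. Counting was tested on simulated data. The members, gene lists and words were chosen with earlier results of these data known. Named genes are those of the 10 regions with the highest summed fold rank, the 5 genes with the most regions, the 5 with the most per Mb among genes with at least 5, and up to 4 per list, a few of which are not reported here. Genes named as having no region, and comparisons between named genes, were chosen after their values were seen. Intervals are Wilson 95%. Alternatives changed the q threshold, overlap, start distance, window, promoter width and replicates used.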

Additional observations from a re-analysis of the deposited data

How the results depend on the processing

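Alternatives were run for 6 results, the number of peaks, the density ratios to first introns and between genes with and without a promoter peak, the GC and fold differences and the TGTA strand difference, and these kept their direction in each one run. The gene lists, introns by number, length and position, chromosomes, neighbourhoods and the TGTA excess over eligible sequence were given under 1 setting only. The mean number of shared later-intron peaks was 3374 when −log10 q had to reach 5, 3894 with summits within 200 bp and 2823 beyond 10 kb from any start. The ratio of later-intron to first-intron density was 0.756 beyond 10 kb and 0.691 at equal GC. The ratio between genes with and without a promoter peak was 11.1 with a reciprocal overlap of 50%, 11.2 with summits within 200 bp, 13.6 beyond 10 kb, 7.55 with promoters of 1 kb, 13.8 with summits at least 1 kb from exons and 4 kb from starts, and 4.39 at equal GC. The GC difference was 20.1 points with the q limit, 20.1 beyond 10 kb and 20.3 with 50 bp on either side of the summit. The difference in median fold was -0.132 with the q limit, -0.0577 with reciprocal overlap, -0.0688 with summits within 200 bp, -0.0834 beyond 10 kb, -0.102 without tandem repeats and -0.0766 with the margins from exons and starts. The TGTA strand difference was 2.75 points with 50 bp on either side. The causes were not tested.

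With 1 replicate alone, so with no overlap required, the number of peaks ran from 8254 to 12470, the density ratio to first introns from 0.677 to 0.692, the promoter ratio from 9.94 to 11.1, the GC difference from 18.4 to 18.9, the fold difference from -0.122 to -0.0895 and the TGTA difference from 2.81 to 5.45. Of 52 alternative values, 22 stayed within the spread of the replicates or, for counts, within 1.5 times. The equal-GC, tandem-repeat and margin alternatives were chosen after seeing the data. The planned repeat-masked alternative was not run because the reference sequence is in upper case, and the tandem-repeat one took its place. No paired analysis was possible because the study has a single group, with no other to pair it with.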
